A study of Arabidopsis thaliana with 18 samples.

Results

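The genes examined here are 10 heat shock transcription factor (HSF) genes of Arabidopsis thaliana, picked by locus identifier from the 32833 genes of the deposited expression table. They are HSFA1A (AT4G17750), HSFA1B (AT5G16820), HSFA1D (AT1G32330), HSFA2 (AT2G26150), HSFA3 (AT5G03720), HSFA7A (AT3G51910), HSFA7B (AT3G63350), HSFB1 (AT4G36990), HSFB2A (AT5G62020) and HSFB2B (AT4G11660). The reference annotation also lists HSFA1A as HSF1, HSFA1B as HSF3 and HSFB1 as HSF4. Leaves of 3 lines were sampled, each after 6 h under water and in air: phyA-211, a mutant of the phytochrome A photoreceptor gene PHYA; ein3eil1, a mutant of the ethylene-response transcription factor genes EIN3 and EIL1; and the wild type. All plants were 4 weeks old and had grown in air, every library is titled mock without a word on what the mock treatment was, and each of the 6 groups has 3 libraries, 18 in all. The labels do not name the ein3 and eil1 alleles, the accession of the wild type, the light or temperature during the treatment, or how the replicates were made. The p-values therefore describe variation among the 18 libraries, which may be technical. The series title places the study in work on PHYA and how amphibious plants escape submergence.

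HSFs are DNA-binding proteins that assemble into trimers and recognise heat shock elements, which are alternating copies of the bases GAA and their complement TTC. Class A factors activate transcription, and class B factors lack the activation motif and mostly repress it. In Arabidopsis the HSFA1 proteins are made without stress and held inactive by chaperones, and when proteins misfold they switch on HSFA2, HSFA7A, HSFA7B, class B genes and chaperone genes, while HSFA3 is driven through DREB2 factors.

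Values are TPM, a unit that relates a gene's reads to its length and to the whole library and hides the read depth, so that counting error cannot be given. Tests were run on log2(TPM + 1) with limma across 20302 genes that reached 1 TPM in at least 3 libraries, and a gene is said to have risen or fallen where the Benjamini-Hochberg adjusted p was under 0.05. Fold changes on that scale understate the change of low genes. An exact test of 3 libraries against 3 cannot go below p = 0.1. Of the 10 HSF genes, 9 passed the filter. HSFA7B did not, and its values are described without a test.

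The mutated genes were lower in their mutants but not absent. PHYA stood at 7.50 to 12.75 TPM in submerged phyA-211 and 22.04 to 23.81 TPM in submerged wild type, and at 1.20 to 1.83 TPM in air-grown phyA-211 and 10.83 to 13.22 TPM in air-grown wild type. EIL1 stood at 6.90 to 12.53 TPM in submerged ein3eil1 and 65.29 to 69.54 TPM in submerged wild type, whereas the EIN3 ranges were 41.56 to 49.37 TPM and 49.58 to 56.98 TPM in the same groups. Leaf photosynthesis markers (5 genes) summed to 8733 to 18721 TPM in submerged ein3eil1, against 22799 to 23776 TPM in air-grown ein3eil1. They summed to 14965 to 17042 TPM in submerged phyA-211, against 24805 to 45742 TPM in air-grown phyA-211. In wild type the sums were 37395 to 38487 TPM under water and 38372.5 to 43099 TPM in air. Against submerged wild type, 2 of the 5, the abundant RBCS1A and LHCB1.3, were lower in each submerged mutant, and 3 were not called. Of all tested genes, 6.44% were lower there in phyA-211 and 16% in ein3eil1. All 4 vascular markers and all 4 epidermis markers fell with submergence in ein3eil1, 1 vascular and 3 epidermis markers fell in phyA-211 and in wild type, and the 4 vascular markers were higher in ein3eil1 than in wild type in air. Of 4 guard cell markers, 2 fell and 1 rose with submergence in phyA-211, 1 fell in ein3eil1 and 2 fell in wild type. Of all tested genes, 47.3% fell with submergence in ein3eil1, 23.9% in phyA-211 and 38% in wild type, and 27.3% rose in phyA-211. In air 25.6% of all tested genes were higher in ein3eil1 than in wild type. Root markers summed to at most 0.28 TPM. Flower and seed markers summed to 5.64 to 27 TPM in submerged ein3eil1, 0.99 to 44.55 TPM in air-grown ein3eil1, 0.88 to 20.38 TPM in air-grown phyA-211 and at most 13.38 TPM elsewhere. Small nuclear RNA genes took 0.329% to 2.04% of the TPM in the phyA-211 libraries, 0.433% to 0.592% in the submerged libraries of ein3eil1 and wild type, and at most 0.0553% in air-grown ein3eil1 and wild type. Submerged phyA-211 replicate 1 correlated more closely with submerged wild type (r up to 0.960) than with its own replicates (0.918 and 0.932). The part of these differences in the results below was not tested. In leaf tissue as a whole, fewer cells of a type and less RNA per cell cannot be told apart.

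The summed transcript of the 10 HSF genes was highest in submerged ein3eil1, and class B genes made up most of it in every group. The sum averaged 129 ± 4.33 TPM in submerged phyA-211 and 108 ± 46.1 TPM in air-grown phyA-211 (SD, n = 3 each). It averaged 507 ± 197 TPM in submerged ein3eil1 and 170 ± 9.47 TPM in air-grown ein3eil1. It averaged 145 ± 3.81 TPM in submerged wild type and 168 ± 15.1 TPM in air-grown wild type. Submerged ein3eil1 libraries held 382 to 735 TPM, above each of the other 15 libraries, whose highest sum was 180.6 TPM in air-grown ein3eil1. Class B genes took 76.1% of the sum in submerged ein3eil1 and 74.1% in air-grown ein3eil1, and 62.5% in submerged wild type and 79.3% in air-grown wild type. HSFA2, HSFA3, HSFA7A and HSFA7B together took 29.8% in submerged phyA-211 and 6.25% in air-grown phyA-211, and 29.8% in submerged wild type and 7.70% in air-grown wild type.

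**Figure D1:**
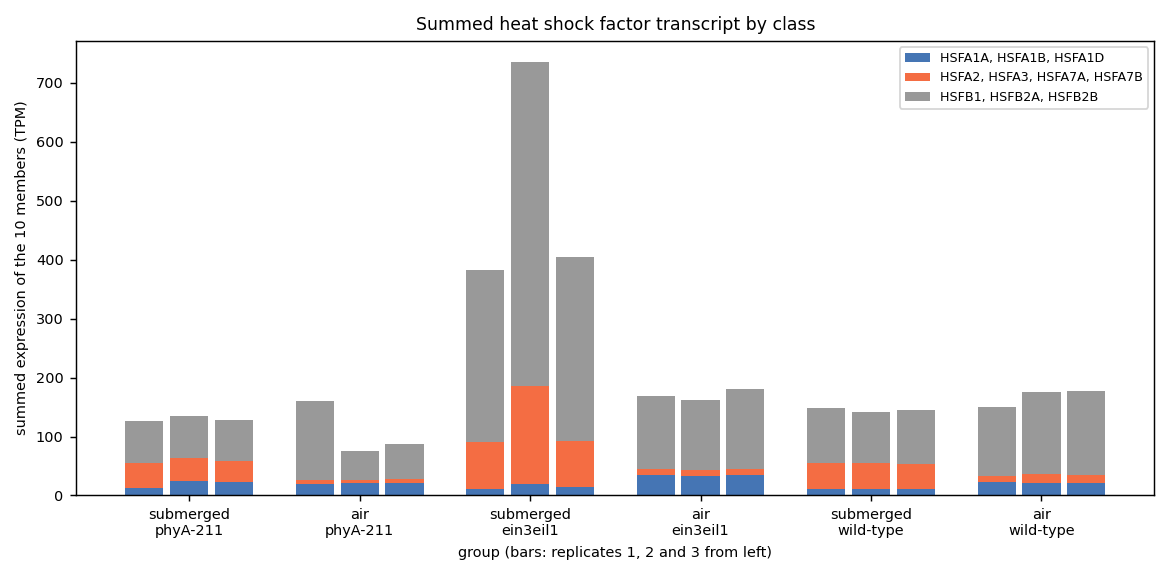
Stacked bars give the summed TPM of the 10 HSF genes in each of the 18 libraries, with the HSFA1 genes in blue, HSFA2, HSFA3, HSFA7A and HSFA7B in orange and the class B genes in grey. The 3 submerged ein3eil1 libraries stand at 382 to 735 TPM, above all others, and the grey class B part is the largest in every bar.

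HSFA3 and HSFA7A rose with submergence in all 3 lines. HSFA2 and HSFB2B rose in ein3eil1 and fell in wild type, HSFB1 rose in ein3eil1, HSFB2A rose in phyA-211 and ein3eil1, and the 3 HSFA1 genes fell in ein3eil1 and wild type. In phyA-211, 3 of the 9 tested members rose and 0 fell with submergence, where 51.2% of all tested genes passed the threshold (27.3% higher and 23.9% lower). In ein3eil1, 6 rose and 3 fell, where 64.2% of all tested genes passed (17% higher and 47.3% lower). In the wild type, 2 rose and 5 fell, where 56.9% of all tested genes passed (18.9% higher and 38% lower). Median log2 fold changes of the members were 0.06 in phyA-211, 1.47 in ein3eil1 and -0.67 in wild type, beside 0.07, -0.48 and -0.32 over all tested genes. Because the median gene moved in ein3eil1 and wild type, the scaling of the libraries matters for small changes. With each library centred on its median, 3 members rose and 1 fell in phyA-211, 6 rose and 1 fell in ein3eil1, and 2 rose and 2 fell in wild type, and quantile normalization gave the same counts. Centring also turned the split of all tested genes in wild type to 6539 higher and 4520 lower, against 3831 higher and 7719 lower, and in ein3eil1 to 6186 higher and 5317 lower, against 3444 higher and 9593 lower.

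**Figure D2:**
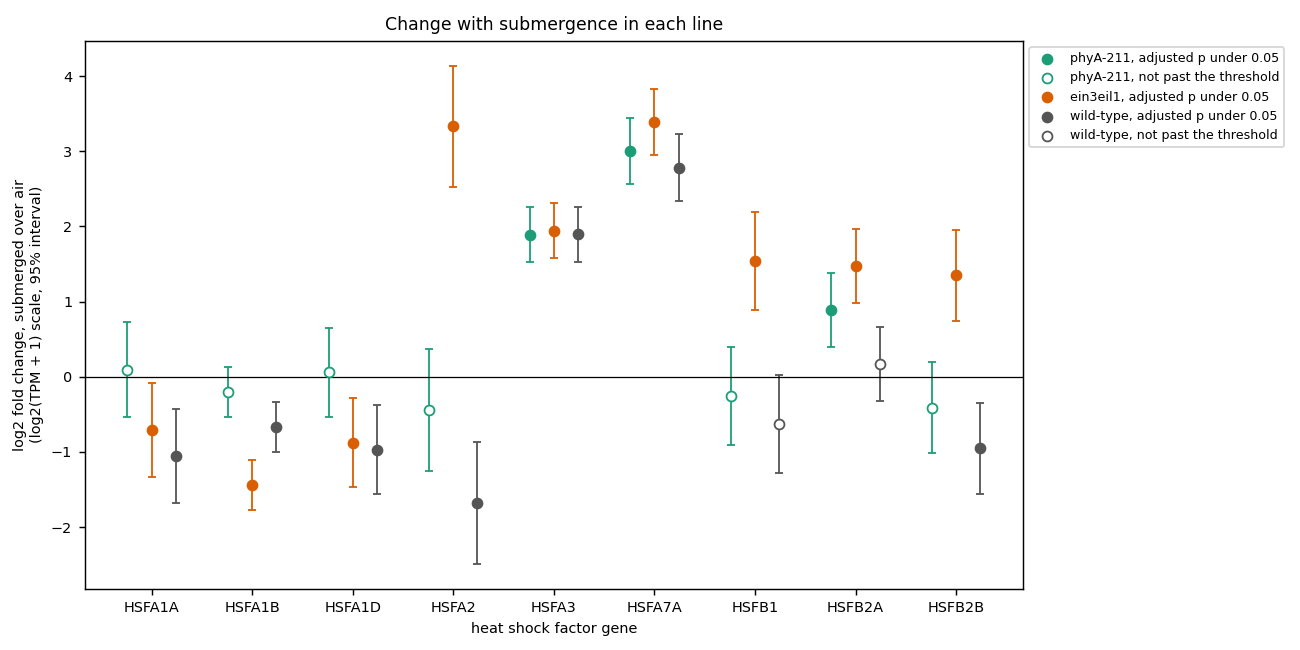
Points give the log2 fold change of submerged over air for the 9 tested HSF genes in phyA-211 (green), ein3eil1 (orange) and wild type (grey), on the log2(TPM + 1) scale with 95% intervals from limma, filled where the adjusted p was under 0.05. HSFA3 and HSFA7A lie above 0 in all 3 lines, and HSFA2, HSFB1 and HSFB2B lie well above 0 in ein3eil1 alone among the lines.

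The HSFA1 genes, which encode the activators present without stress, fell with submergence in ein3eil1 and in wild type. HSFA1B was the most abundant of them in most groups. It read 7.13, 11.05 and 11.83 TPM in submerged phyA-211 (replicates 1, 2 and 3), against 12.19, 11.15 and 10.88 TPM in air. In ein3eil1 it read 4.97, 6.41 and 5.59 TPM under water, against 17.32, 17.22 and 16.41 TPM in air. In wild type it read 6.68, 6.97 and 7.82 TPM under water, against 11.94, 11.58 and 12.24 TPM in air. Submerged and air libraries did not overlap in ein3eil1 or wild type and overlapped in phyA-211, where replicate 1 alone was low. Of all tested genes, 52.9% in ein3eil1 and 49.5% in wild type lay lower under water without overlap. HSFA1B fell by 1.44 on the log2 scale in ein3eil1 (SE 0.16, adjusted p = 1.19e-06) and by 0.67 in wild type (SE 0.16, adjusted p = 0.00198). In phyA-211 its log2 fold change was -0.20 (95% interval -0.53 to 0.13, adjusted p = 0.303), which became -0.27 and passed the threshold with median centring (adjusted p = 0.0366). The HSFA1B fall was larger in ein3eil1 than in wild type by 0.77 (SE 0.22, adjusted p = 0.0169). Median centring kept the fall in ein3eil1 at -0.90 and left -0.20 in wild type (adjusted p = 0.113).

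HSFA1D, which encodes an activator of the same group, fell in ein3eil1 and wild type. It read 3.45, 9.93 and 7.74 TPM in submerged phyA-211, against 4.88, 6.27 and 7.80 TPM in air-grown phyA-211. In ein3eil1 it read 5.13, 10.26 and 6.32 TPM under water, against 14.02, 12.42 and 14.54 TPM in air. In wild type it read 3.22, 2.98 and 3.37 TPM under water, against 8.06, 6.77 and 6.84 TPM in air. The wild-type groups were far apart and tight, the ein3eil1 groups did not overlap, and the phyA-211 groups overlapped fully. Without overlap, 49.5% of all tested genes lay lower under water in wild type and 52.9% in ein3eil1. HSFA1D fell by 0.88 in ein3eil1 (SE 0.28, adjusted p = 0.0120) and by 0.97 in wild type (SE 0.28, adjusted p = 0.00776), and its log2 fold change in phyA-211 was 0.06 (95% interval -0.53 to 0.65, adjusted p = 0.878). With median centring the ein3eil1 value was -0.34 (adjusted p = 0.150) and the wild-type value -0.51 (adjusted p = 0.0397).

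HSFA1A was the lowest of the HSFA1 genes. It read 1.81, 3.88 and 3.79 TPM in submerged phyA-211, against 2.03, 3.52 and 2.95 TPM in air-grown phyA-211. It read 1.49, 2.57 and 2.1 TPM in ein3eil1 under water, against 4.10, 3.56 and 4.17 TPM in ein3eil1 in air. It read 0.86 and 1.56 TPM and was listed at 0 in submerged wild type, against 2.03, 2.75 and 2.75 TPM in air-grown wild type. Submerged libraries lay below air libraries without overlap in ein3eil1 and wild type only, as for 52.9% and 49.5% of all tested genes. HSFA1A fell by 1.05 in wild type (SE 0.30, adjusted p = 0.00678) and by 0.71 in ein3eil1 (SE 0.30, adjusted p = 0.0468). The ein3eil1 call was lost in 5 of 6 fits that left out 1 library, and with median centring (-0.17, adjusted p = 0.586), which also took the wild-type value to -0.59 (adjusted p = 0.0642).

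Across the 6 groups, the mean levels of the HSFA1 genes were highest in air-grown ein3eil1. HSFA1B ran from 17.0 TPM in air-grown ein3eil1 through 11.9 TPM in air-grown wild type, 11.4 TPM in air-grown phyA-211, 10.003 TPM in submerged phyA-211 and 7.16 TPM in submerged wild type to 5.66 TPM in submerged ein3eil1. The libraries of the first group did not overlap those of the next, nor did those of submerged wild type and submerged ein3eil1, while the neighbours between them overlapped. HSFA1D ranked 13.7 TPM in air-grown ein3eil1, then 7.24 TPM in submerged ein3eil1, 7.22 TPM in air-grown wild type, 7.04 TPM in submerged phyA-211 and 6.32 TPM in air-grown phyA-211, all overlapping from the second to the fifth, and 3.19 TPM in submerged wild type. The reads of HSFA1B may include some of the opposite-strand gene AT5G16830, which overlaps it by 44 bases, since the sources do not say whether strand was used.

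**Figure D3:**
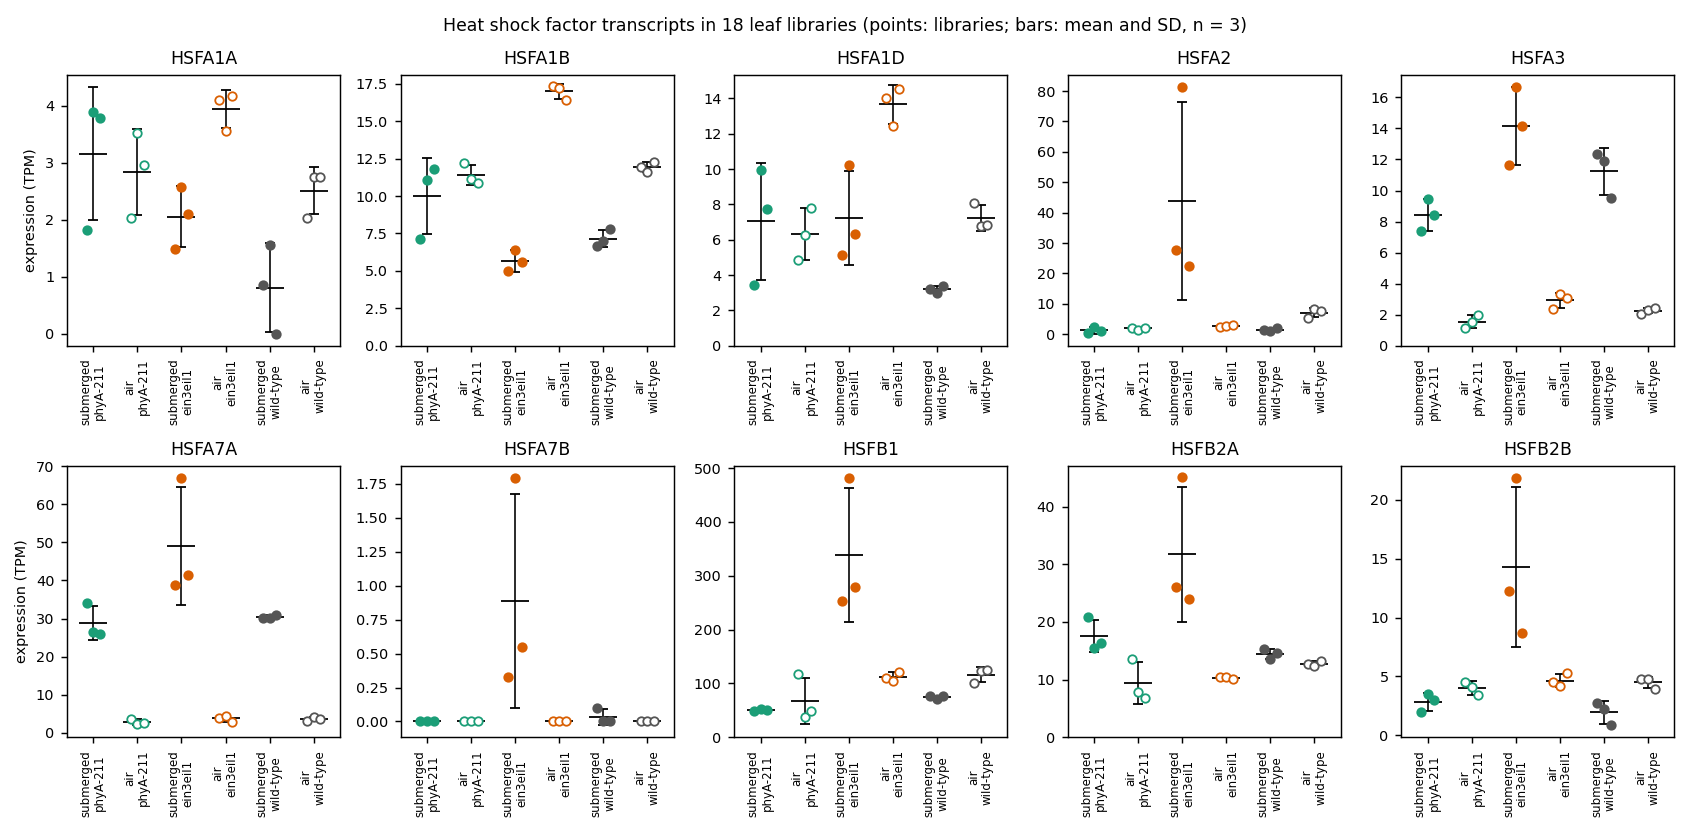
Each panel shows 1 HSF gene, with TPM per library as points (filled for submerged, open for air), the group mean as a bar and the SD as a whisker (n = 3). HSFA1 genes peak in air-grown ein3eil1, HSFA3 and HSFA7A separate submerged from air libraries in every line, and the other panels have their highest points in submerged ein3eil1, replicate 2.

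HSFA2 encodes the activator that prolongs the heat response in Arabidopsis, and it had the largest difference between lines. It read 0.44, 2.45 and 0.96 TPM in submerged phyA-211, against 2.1, 1.44 and 2.21 TPM in air-grown phyA-211. It read 27.63, 81.37 and 22.57 TPM in ein3eil1 under water, against 2.53, 2.78 and 3.08 TPM in ein3eil1 in air. It read 1.38, 1.22 and 2.00 TPM in submerged wild type, against 5.46, 8.32 and 7.63 TPM in air-grown wild type. All 3 submerged ein3eil1 libraries lay above the other 15, and submerged wild-type libraries lay below air-grown ones without overlap, while the phyA-211 groups overlapped. Of all tested genes, 19.9% lay above air without overlap in submerged ein3eil1, and 49.5% lay below it in submerged wild type. The HSFA2 mean was 15.68 times the air mean in submerged ein3eil1 (log2 fold change 3.33, SE 0.38, adjusted p = 2.03e-06). In wild type HSFA2 fell by 1.68 (SE 0.38, adjusted p = 0.00151), and in phyA-211 its log2 fold change was -0.44 (95% interval -1.25 to 0.37, adjusted p = 0.353). The response in ein3eil1 exceeded that in wild type by 5.01 (SE 0.54, adjusted p = 9.56e-06), and the phyA-211 response was below that in ein3eil1 by a log2 difference of -3.77 (SE 0.54, adjusted p = 0.000119). Without submerged ein3eil1 replicate 2, the rise in ein3eil1 was 2.78 (adjusted p = 2.24e-06) and the mean was 8.97 times the air mean. In order, HSFA2 means were 43.9 TPM in submerged ein3eil1, 7.14 TPM in air-grown wild type, 2.80 TPM in air-grown ein3eil1, 1.92 TPM in air-grown phyA-211, 1.53 TPM in submerged wild type and 1.28 TPM in submerged phyA-211, and only the last 3 overlapped with a neighbour.

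HSFA3, the factor that DREB2 proteins switch on, rose in each of the 3 lines. It read 7.40, 9.43 and 8.41 TPM in submerged phyA-211, against 1.16, 1.51 and 2.00 TPM in air-grown phyA-211. It read 11.62, 16.69 and 14.15 TPM in ein3eil1 under water, against 2.40, 3.32 and 3.07 TPM in ein3eil1 in air. It read 12.34, 11.87 and 9.5 TPM in submerged wild type, against 2.07, 2.31 and 2.43 TPM in air-grown wild type. All 9 submerged libraries lay above all 9 air libraries. The log2 rise was 1.89 in phyA-211 (adjusted p = 2.12e-07), 1.94 in ein3eil1 (adjusted p = 1.39e-07) and 1.90 in wild type (adjusted p = 2.43e-07), each with SE 0.17. The rise in phyA-211 differed from that in wild type by -0.01 (95% interval -0.53 to 0.51) and the rise in ein3eil1 by 0.04 (95% interval -0.48 to 0.56). With median centring the rises were 1.81 in phyA-211, 2.48 in ein3eil1 and 2.36 in wild type, and that in phyA-211 was below that in ein3eil1 by a log2 difference of -0.66 that passed the threshold (adjusted p = 0.0376). The overlapping gene AT5G03710 on the opposite strand had at most 0.42 TPM in any library.

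HSFA7A, a class A gene of the group that HSFA1 proteins induce, had the largest log2 rise of the tested members in all 3 lines. It read 34.10, 26.48 and 25.93 TPM in submerged phyA-211, against 3.55, 2.21 and 2.48 TPM in air-grown phyA-211. It read 38.89, 66.92 and 41.38 TPM in ein3eil1 under water, against 3.87, 4.48 and 2.78 TPM in ein3eil1 in air. It read 30.06, 30.25 and 30.87 TPM in submerged wild type, against 3.14, 4.09 and 3.49 TPM in air-grown wild type. No submerged library fell below 25.93 TPM and no air library exceeded 4.48 TPM. Submerged means were 10.5, 13.2 and 8.51 times the air means in phyA-211, ein3eil1 and wild type, with log2 rises of 3.00 (adjusted p = 9.35e-09), 3.38 (adjusted p = 2.72e-09) and 2.78 (adjusted p = 2.82e-08), each with SE 0.21. The rise in ein3eil1 exceeded that in wild type by 0.60, which did not pass the test (95% interval -0.02 to 1.22, adjusted p = 0.145) but passed when groups were weighted by their own spread (adjusted p = 0.0486). The rise in phyA-211 was below that in ein3eil1 by a log2 difference of -0.99 with median centring (adjusted p = 0.0421), and that difference was not called without it.

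HSFA7B, the close relative of HSFA7A, was seen almost solely in submerged ein3eil1. It read 0.33, 1.79 and 0.55 TPM there and 0.10 TPM in submerged wild type replicate 1, and it was listed at 0 in the other 14 libraries. These levels are too low for a comparison of size.

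The 250 bases before each member's annotated start were searched for the heat shock element, which the HSF proteins themselves bind. The 2-unit forms GAANNTTC and TTCNNGAA were searched on both strands, each of which reads the same on either strand. The 3-unit form is GAANNTTC extended by NNGAA, which makes it overlap a 2-unit form of each kind, and on the other strand it reads TTCNNGAA extended by NNTTC. The G-box CACGTG was searched as well. A 2-unit form was present before HSFA2, HSFA7A and HSFA7B and before none of the other 7 members, and each of the 3 also held a 3-unit form. Over 27443 protein-coding genes of the RefSeq annotation of TAIR10.1, 16.1% held a 2-unit form and 0.386% (106 genes) a 3-unit form in the same window. HSFA7A held the same 3-unit letters at 192 to 180 and at 142 to 130 bases before its start. HSFA7B held a 3-unit form at 157 to 145 bases and a further 2-unit form at 102 to 95 bases. HSFA2 held a 3-unit form at 88 to 76 bases, a G-box at 56 to 51 bases and a further 2-unit form at 33 to 26 bases. The windows of these 3 genes and of HSFB1, the most abundant member, are given 5′ to 3′ on the gene's strand, which is the plus strand for all 4, with 2-unit forms in capitals. They lie at chr2:11135374-11135623 (HSFA2), chr3:19264891-19265140 (HSFA7A), chr3:23398986-23399235 (HSFA7B) and chr4:17439927-17440176 (HSFB1) of TAIR10.1, which keeps the nuclear chromosomes of the authors' TAIR10.
HSFA2: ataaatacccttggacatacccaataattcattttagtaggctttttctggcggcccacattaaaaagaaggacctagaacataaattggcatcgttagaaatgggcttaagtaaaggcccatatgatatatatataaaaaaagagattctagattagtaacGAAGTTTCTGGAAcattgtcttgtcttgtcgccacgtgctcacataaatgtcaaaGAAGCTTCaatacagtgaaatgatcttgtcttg
HSFA7A: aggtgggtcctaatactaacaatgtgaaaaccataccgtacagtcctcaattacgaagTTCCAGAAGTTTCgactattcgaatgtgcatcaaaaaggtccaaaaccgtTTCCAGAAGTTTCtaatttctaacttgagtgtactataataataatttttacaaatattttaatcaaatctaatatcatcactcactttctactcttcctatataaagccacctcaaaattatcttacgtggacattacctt
HSFA7B: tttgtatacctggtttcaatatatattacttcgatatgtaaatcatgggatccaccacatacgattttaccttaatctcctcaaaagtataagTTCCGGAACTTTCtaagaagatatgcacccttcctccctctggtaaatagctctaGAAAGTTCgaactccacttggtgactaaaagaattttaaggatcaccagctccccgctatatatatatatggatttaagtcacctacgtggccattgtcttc
HSFB1: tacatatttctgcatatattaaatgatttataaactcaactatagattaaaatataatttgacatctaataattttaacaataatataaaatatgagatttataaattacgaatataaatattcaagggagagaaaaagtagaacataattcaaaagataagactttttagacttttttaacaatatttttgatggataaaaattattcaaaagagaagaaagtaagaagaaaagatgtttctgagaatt
A match describes letters in the window and not a bound site, and HSFB1, HSFB2A and HSFB2B changed in ein3eil1 with no match in theirs. HSFA3, which rose in all 3 lines, had no match either.

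**Figure D4:**
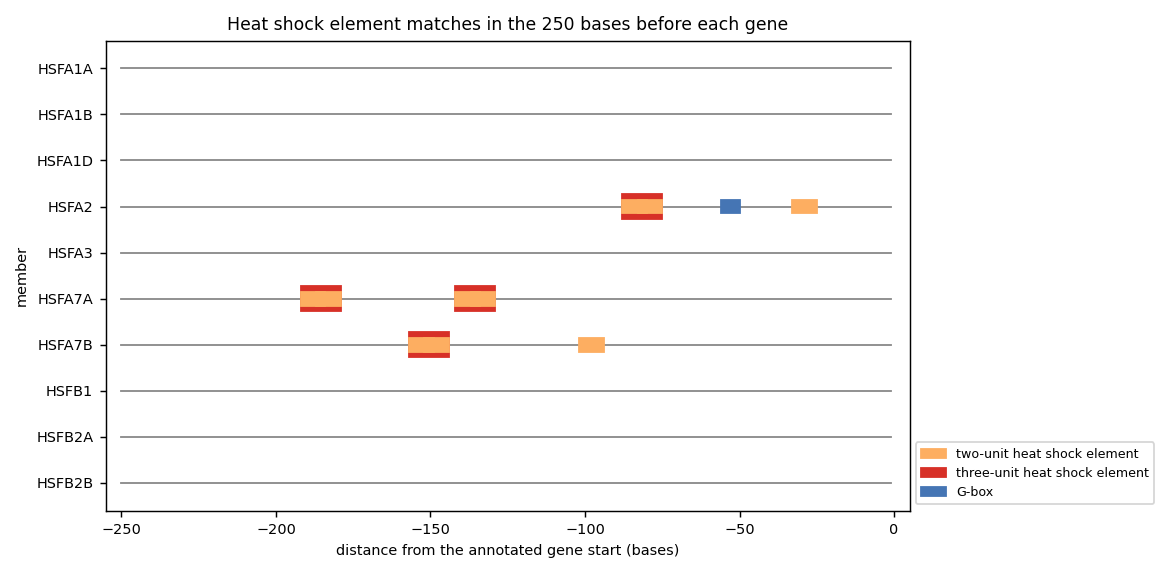
Grey lines stand for the 250 bases before the annotated start of each of the 10 HSF genes, with distance from the start in bases on the horizontal axis. Boxes mark 2-unit heat shock elements (orange), 3-unit elements (red, drawn taller) and the G-box (blue), which occur before HSFA2, HSFA7A and HSFA7B alone among the 10.

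The 3 class B members, which encode repressors, rose with submergence in ein3eil1, whereas in wild type HSFB2B fell and the other two did not pass the test. HSFB1, which acts with HSFB2B to limit HSFA2 and HSFA7A expression and so to end the heat response, was the most abundant member in every group. It read 48.85, 51.93 and 49.67 TPM in submerged phyA-211, against 116.76, 37.98 and 48.28 TPM in air-grown phyA-211. It read 253.82, 481.59 and 279.74 TPM in ein3eil1 under water, against 109.03, 103.51 and 121.20 TPM in ein3eil1 in air. It read 76.05, 70.54 and 76.07 TPM in submerged wild type, against 100.35, 123.01 and 124.97 TPM in air-grown wild type. The 3 submerged ein3eil1 libraries lay above all others, where 19.9% of all tested genes lay above air-grown ein3eil1 without overlap. The wild-type groups did not overlap, with the submerged one lower, as for 49.5% of all tested genes. In air-grown phyA-211, replicate 1 stood far above the rest of its group. HSFB1 rose by 1.54 in ein3eil1 (SE 0.31, adjusted p = 0.000421), which was 3.04 times the air mean. Its log2 fold change in wild type was -0.63 (95% interval -1.28 to 0.02, adjusted p = 0.0888), past the threshold when the 2 groups were fitted alone (adjusted p = 0.000299) or groups were weighted by their own spread (adjusted p = 0.00693). In phyA-211 it was -0.25 (95% interval -0.90 to 0.40) and lay between -0.58 and 0.22 when 1 library was left out. The ein3eil1 response exceeded that in wild type by 2.17 (SE 0.43, adjusted p = 0.00174).

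HSFB2B, the partner of HSFB1 in that repression, read 2.00, 3.50 and 2.97 TPM in submerged phyA-211, against 4.57, 4.12 and 3.40 TPM in air-grown phyA-211. It read 12.28, 21.85 and 8.71 TPM in ein3eil1 under water, against 4.49, 4.19 and 5.25 TPM in ein3eil1 in air. It read 2.74, 2.20 and 0.89 TPM in submerged wild type, against 4.78, 4.76 and 3.94 TPM in air-grown wild type. The direction was opposite in ein3eil1 and wild type, without overlap in either. Of all tested genes, 19.9% lay higher under water without overlap in ein3eil1, and 49.5% lay lower in wild type. HSFB2B rose by 1.35 in ein3eil1 (SE 0.29, adjusted p = 0.000714) and fell by 0.95 in wild type (SE 0.29, adjusted p = 0.00996), and the 2 responses differed by 2.30 (SE 0.40, adjusted p = 0.000692). The wild-type call was lost without submerged wild type replicate 3 (-0.66, adjusted p = 0.0648) and with median centring (-0.49, adjusted p = 0.123). The non-coding gene AT4G05910 covers 352 bases of HSFB2B on the opposite strand. It read 20.13 to 37.49 TPM in submerged ein3eil1 and 8.46 to 12.35 TPM in air-grown ein3eil1. The protein-coding gene AT4G11670 covers 308 bases, also on the opposite strand. It read 6.78 to 10.74 TPM in submerged ein3eil1 and 7.37 to 8.27 TPM in air-grown ein3eil1. In wild type AT4G11670 read 1.86 to 2.02 TPM under water and 4.09 to 4.96 TPM in air. Reads of HSFB2B and these genes cannot be told apart where they overlap, as the use of strand is not stated.

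HSFB2A, a class B gene known from gametophyte development, read 20.78, 15.53 and 16.41 TPM in submerged phyA-211, against 13.49, 7.80 and 6.77 TPM in air-grown phyA-211. It read 26.12, 45.11 and 23.92 TPM in ein3eil1 under water, against 10.47, 10.46 and 10.06 TPM in ein3eil1 in air. It read 15.26, 13.48 and 14.60 TPM in submerged wild type, against 12.74, 12.26 and 13.23 TPM in air-grown wild type. Submerged libraries lay above air libraries in each line, narrowly in wild type, as for 23.4% of all tested genes in phyA-211, 19.9% in ein3eil1 and 24.4% in wild type. HSFB2A rose by 0.89 in phyA-211 (SE 0.23, adjusted p = 0.00431) and by 1.47 in ein3eil1 (SE 0.23, adjusted p = 4.72e-05), and its log2 fold change in wild type was 0.17 (95% interval -0.32 to 0.66, adjusted p = 0.554). With the 2 phyA-211 groups fitted alone, the adjusted p was 0.05002. The ein3eil1 response exceeded that in wild type by 1.31 (SE 0.32, adjusted p = 0.00764), and the phyA-211 response exceeded it by 0.72 (95% interval 0.03 to 1.41, adjusted p = 0.104).

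Submerged ein3eil1 replicate 2 was the highest of its group for 10 of 10 members, by 1.15 to 3.25 times the next library, where it was the highest for 49.3% of all tested genes. Without it, all 9 tested members kept their calls for submergence in ein3eil1, with HSFB1 at 1.26 (adjusted p = 0.00303), HSFB2A at 1.20 (adjusted p = 0.000221) and HSFB2B at 1.01 (adjusted p = 0.00426).

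The responses of ein3eil1 and wild type to submergence differed for 5 of the 9 tested members, where 27.4% of all tested genes passed (10.8% positive and 16.6% negative). HSFA2, HSFB1, HSFB2A and HSFB2B had positive differences and HSFA1B a negative one. Between phyA-211 and ein3eil1, 4 of 9 passed, HSFA1B positive at 1.24 (SE 0.22, adjusted p = 0.000668) and HSFA2, HSFB1 and HSFB2B negative, where 46.5% of all tested genes passed (37.7% positive and 8.82% negative). HSFB1 differed there by -1.79 (SE 0.43, adjusted p = 0.00467) and HSFB2B by -1.76 (SE 0.40, adjusted p = 0.00353). With median centring 7 passed in that comparison, 1 positive and 6 negative, as HSFA3, HSFA7A and HSFB2A joined. Between phyA-211 and wild type, 0 of 9 passed the limma test and 4 had an unadjusted p under 0.05, where 24.6% of all tested genes passed (20.4% positive and 4.19% negative). The nearest were HSFA1A at 1.15 (95% interval 0.26 to 2.04, adjusted p = 0.0554), HSFA1D at 1.03 (95% interval 0.19 to 1.87, adjusted p = 0.0638) and HSFA2 at 1.24 (95% interval 0.10 to 2.38, adjusted p = 0.0928). Without submerged phyA-211 replicate 1, the library that resembles submerged wild type, 4 passed: HSFA1A at 1.41, HSFA1B at 0.67, HSFA1D at 1.41 and HSFA2 at 1.52. That library was singled out for its likeness to the reference group, so its omission cannot decide whether the lines differ. Over the 12 fits that left out 1 library, HSFA1A passed in 3 and HSFA1B, HSFA1D and HSFA2 in this 1 only. The differences in response between lines share groups with each other and with the comparisons within lines, so they are not independent.

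In submerged leaves, 7 of the 9 tested members were higher in ein3eil1 than in wild type and 0 were lower, where 44.5% of all tested genes passed (28.5% higher and 16% lower). HSFA2 was 28.6 times the wild-type mean (log2 3.93, SE 0.38, adjusted p = 8.01e-07), or 16.4 times without submerged ein3eil1 replicate 2 (log2 3.37). HSFB2B was 7.35 times (log2 2.34, SE 0.29, adjusted p = 8.57e-06), HSFB1 4.56 times (log2 2.11, SE 0.31, adjusted p = 4.68e-05) and HSFB2A 2.20 times (log2 1.03, SE 0.23, adjusted p = 0.00198). HSFA1A (0.84), HSFA1D (0.93) and HSFA7A (0.63) were also higher, and each of these 3 lost its call without submerged ein3eil1 replicate 2, with adjusted p of 0.111, 0.0826 and 0.136. Median centring left 4 higher (HSFA1D, HSFA2, HSFB1 and HSFB2B) and made HSFA1B lower at -0.66 (adjusted p = 0.000108).

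In air, the same lines differed at 3 members, where 28.3% of all tested genes passed (25.6% higher and 2.73% lower). HSFA1B was higher in ein3eil1 by 0.48 (SE 0.16, adjusted p = 0.0350), HSFA1D was higher by 0.83 (SE 0.28, adjusted p = 0.0376), and HSFA2 was lower, with a log2 fold change of -1.08 (SE 0.38, adjusted p = 0.0448). All 3 calls were lost whichever of the 6 libraries was left out, with adjusted p from 0.0505 to 0.135, and the libraries of the 2 groups did not overlap for any of the 3. Over all tested genes, 52.1% lay higher and 6.79% lower in ein3eil1 without overlap. With median centring HSFA1B stood at 0.04 and HSFA1D at 0.40 without a call, and HSFA2 stayed lower at -1.52 (adjusted p = 0.0116).

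Between phyA-211 and wild type, HSFA1A and HSFA1D differed in submerged leaves and HSFA2 in air. In submerged leaves 2 of 9 were higher in phyA-211, HSFA1A by 1.26 (SE 0.30, adjusted p = 0.00640) and HSFA1D by 0.84 (SE 0.28, adjusted p = 0.0271), where 39.1% of all tested genes passed (32.7% higher and 6.44% lower). Neither passed when the 2 groups were fitted alone (adjusted p = 0.0814 and 0.116), while HSFB1 then passed as lower (-0.56, adjusted p = 0.0352), and HSFA1D lost its call in 5 of 6 fits without 1 library. With median centring HSFA1A stayed higher, HSFA1D did not pass (0.38, adjusted p = 0.142), and HSFA3 (-0.84, adjusted p = 0.00232) and HSFB1 (-1.02, adjusted p = 0.0308) were lower in phyA-211. Quantile normalization also made HSFA3 lower (-0.77, adjusted p = 0.00512). The median over all tested genes was 0.29 higher in submerged phyA-211 before centring. In air HSFA2 was lower in phyA-211 (-1.47, SE 0.38, adjusted p = 0.0403), which made 1 of 9, where 4.01% of all tested genes passed (1.63% higher and 2.38% lower). The groups did not overlap, as for 13.9% of all tested genes that lay lower in phyA-211, and the call was lost whichever of the 6 libraries was left out, with adjusted p from 0.0576 to 0.165. HSFB1 in air was not called (-0.94, adjusted p = 0.110), and without air-grown phyA-211 replicate 1 it was lower by a log2 change of -1.41 (adjusted p = 0.00133).

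The other 11 HSF genes of Arabidopsis changed in both directions. HSFA6A, HSFA6B, HSFA9 and HSFB3 stayed under 1 TPM in every library and were not tested. Of the other 7, HSFA4A, a factor tied to hydrogen peroxide signalling, rose by 1.3 in submerged ein3eil1 (adjusted p = 1.08e-05) to 91.90 to 120.50 TPM, against 37.85 to 46.58 TPM in air, and fell by 0.77 in wild type (adjusted p = 0.00154). HSFA4C, known from root gravitropism, rose by 0.91 in ein3eil1 (adjusted p = 8.78e-05). HSFC1, the sole class C gene, fell by 1.84 in phyA-211, 2.08 in ein3eil1 and 1.25 in wild type, and HSFB4, which patterns root ground tissue, fell by 1.19 in phyA-211 and 1.81 in ein3eil1. HSFA5, an antagonist of HSFA4 proteins, rose by 0.89 in phyA-211 and 0.66 in wild type, HSFA1E rose by 0.53 in phyA-211 and HSFA8, a redox-responsive factor, fell by 0.52 in wild type. In all, 2 rose and 2 fell in phyA-211, 2 and 2 in ein3eil1, and 1 and 3 in wild type. Of all tested genes, 27.3% rose and 23.9% fell in phyA-211, 17% and 47.3% in ein3eil1, and 18.9% and 38% in wild type. With median centring 5 rose and 2 fell in ein3eil1, and 2 rose and 1 fell in wild type.

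HSFA4A had the largest difference between lines among these 7 genes. In submerged leaves HSFA4A (2.97, adjusted p = 3.82e-09), HSFA8 (1.09) and HSFA4C (0.63) were higher in ein3eil1 than in wild type, and HSFA1E (0.55, adjusted p = 0.0224) was higher in phyA-211. In air HSFB4 (1.36), HSFC1 (1.24) and HSFA4A (0.90) were higher in ein3eil1, and HSFC1 (1.13, adjusted p = 0.0259) was higher in phyA-211. The submergence response in ein3eil1 differed from that in wild type for HSFA4A (2.07), HSFA4C (0.80) and HSFB4 (-1.36), and that in phyA-211 for HSFA1E (0.71, adjusted p = 0.0470). The phyA-211 response differed from that in ein3eil1 for HSFA4A (-1.72), HSFA4C (-0.60) and HSFA5 (0.71).

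Among 22 genes whose products act on HSFs or on their genes, 21 were tested. With submergence 4 rose and 9 fell in phyA-211, 5 rose and 8 fell in ein3eil1, and 3 rose and 13 fell in wild type, with list medians of -0.51, -0.48 and -1.10, beside 0.07, -0.48 and -0.32 over all tested genes. The genes that fell were 9 of 21 in phyA-211, 8 of 21 in ein3eil1 and 13 of 21 in wild type, where 23.9%, 47.3% and 38% of all tested genes fell. In the same order, 27.3%, 17% and 18.9% of all tested genes rose. With median centring the counts were 5 higher and 9 lower in phyA-211, 7 and 5 in ein3eil1, and 6 and 11 in wild type. In what follows a gene is said to lead where its adjusted p was among the 3 smallest of its list and direction, which need not be the largest change. DREB2C, an activator of HSFA3 in Arabidopsis, rose in each line. It read 4.27, 8.39 and 6.74 TPM in submerged phyA-211, against 0.32, 0.27 and 0.55 TPM in air-grown phyA-211. It read 80.17, 164.53 and 79.79 TPM in ein3eil1 under water, against 1.99, 1.34 and 1.37 TPM in ein3eil1 in air. It read 3.87, 4.2 and 4.37 TPM in submerged wild type, against 0.16, 0.95 and 0.16 TPM in air-grown wild type. The ein3eil1 level under water was far above the other groups, and submerged and air libraries did not overlap in any line. Of all tested genes, 23.4% in phyA-211, 19.9% in ein3eil1 and 24.4% in wild type lay higher under water without overlap. DREB2C rose by 2.40 in phyA-211 (adjusted p = 3.35e-06), 5.33 in ein3eil1 (adjusted p = 6.55e-10) and 1.90 in wild type (adjusted p = 3.99e-05). HSFA3 in submerged ein3eil1 was not called against submerged wild type (0.30, 95% interval -0.06 to 0.67), where DREB2C was 4.32 higher (adjusted p = 1.23e-08).

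DREB2A and DREB2B, stress factors of the same family, rose in phyA-211 by 1.78 and 1.17 and in ein3eil1 by 2.57 and 1.53. In wild type NF-YB3, a partner of DREB2A, rose by 0.42 (adjusted p = 0.0228). CAM3, a calmodulin of the heat signal, fell in all 3 lines by 1.04 in phyA-211, 0.83 in ein3eil1 and 1.20 in wild type. NF-YA2, the DNA-binding subunit of that partner complex, fell by 2.85 in ein3eil1 and 2.33 in wild type. The chaperone gene HSP90.3 fell by 2.57 in ein3eil1 and 3.65 in wild type. ROF2, a co-chaperone that modulates HSFA2 in Arabidopsis, fell by 2.81 in phyA-211 and 3.40 in wild type and rose by 2.41 in ein3eil1. MBF1C, a heat-response coactivator, fell by 2.78 in phyA-211 and 1.88 in wild type and rose by 2.72 in ein3eil1.

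Against wild type, 13 of the 21 were higher and 2 lower in submerged ein3eil1, where 28.5% of all tested genes were higher and 16% lower. DREB2C, DREB2A (3.59) and ROF2 (4.30) led the higher ones, and NF-YB3 (-1.36) was among the lower ones. In submerged phyA-211, 9 were higher and 1 lower, where 32.7% of all tested genes were higher and 6.44% lower. NF-YA2 (1.14), HSC70-1 (1.05), which encodes an Hsp70 that holds HSFA1 inactive, and DREB2A (1.28) led the higher ones. MBF1C was the lower one (-1.03, adjusted p = 0.0494). Without submerged phyA-211 replicate 1 that count was 12 higher and 3 lower, and without submerged phyA-211 replicate 2 or 3, or any 1 submerged wild-type library, 5 were higher. In air 0 of 21 passed in phyA-211, and 4 were higher in ein3eil1, led by NF-YA2 (1.31), DREB2A (1.19) and DREB2B (0.64), with ROF2 lower (-1.51). Of all tested genes in air, 4.01% passed in phyA-211, and 25.6% were higher and 2.73% lower in ein3eil1. ROF2 (5.82), DREB2C (3.43) and MBF1C (4.6) led the 8 genes whose response in ein3eil1 exceeded that in wild type, and NF-YB3 (-1.0) was on the negative side. Of all tested genes, 10.8% had a positive difference there and 16.6% a negative one. HSC70-1 (1.47), HSP90.3 (2.25) and DREB2A (1.61) led the 8 genes whose response in phyA-211 exceeded that in wild type, as it did for 20.4% of all tested genes. Between the responses of phyA-211 and ein3eil1, ROF2 (-5.23), MBF1C (-5.51) and DREB2C (-2.93) led the negative differences and HSC70-1 (1.45), NF-YB3 (0.87) and NF-YA2 (1.31) the positive ones.

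Chaperones and other genes that HSFs are known to activate rose in submerged ein3eil1. The list of 28 genes summed to 2146 to 7242 TPM in submerged ein3eil1 and 239.9 to 295 TPM in air-grown ein3eil1. It summed to 70.3 to 113 TPM in submerged phyA-211 and 189 to 223 TPM in air-grown phyA-211. It summed to 112 to 117 TPM in submerged wild type and 261 to 301 TPM in air-grown wild type. Submerged ein3eil1 was thus the highest of the 6 groups, and in the other lines the submerged sums lay below the air sums. APX2 did not pass the filter, and of the other 27 genes 24 rose and 1 fell in ein3eil1 (median 3.12), 0 rose and 9 fell in phyA-211 (median -0.39), and 6 rose and 10 fell in wild type (median -0.54), beside all-gene medians of -0.48, 0.07 and -0.32. Of all tested genes, 17% rose and 47.3% fell in ein3eil1, 27.3% and 23.9% in phyA-211, and 18.9% and 38% in wild type. The wild-type split of the list was 8 higher and 8 lower with median centring. Against wild type in submerged leaves, 27 of 27 were higher in ein3eil1 (median 4.34), and 2 were higher and 9 lower in phyA-211 (median -0.14, beside 0.19 and 0.29 over all tested genes), or 0 higher and 12 lower with median centring. Of all tested genes, 28.5% were higher and 16% lower in submerged ein3eil1, and 32.7% higher and 6.44% lower in submerged phyA-211. Replicate 2 of submerged ein3eil1 was the highest of its group for 28 of 28 genes, by 1.45 to 4.82 times, and without it 22 rose and 2 fell of 26 tested (median 2.41). HSP21 then failed the filter, which it had passed only through submerged ein3eil1 (33.68 to 234.13 TPM, at most 0.87 TPM in other groups). Its higher level there was thus set by the filter, and the counts out of 27 here and below include it.

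The genes of smallest p in submerged ein3eil1 against air were ATHSP22.0 (AT4G10250), a small heat shock protein of the endoplasmic reticulum, AT1G53540, and HSP17.6II (AT5G12020), a cytosolic class II small heat shock protein. ATHSP22.0 read 60.16, 109.61 and 40.65 TPM in ein3eil1 under water, against 0.12, 0.07 and 0.06 TPM in ein3eil1 in air. HSP17.6II read 163.05, 424.36 and 166.95 TPM in ein3eil1 under water, against 0.36, 0.68 and 0.69 TPM in ein3eil1 in air. Both groups were far apart in each case. The log2 rises were 5.92 (adjusted p = 1.33e-10) for ATHSP22.0, 7.18 (adjusted p = 2.38e-10) for AT1G53540 and 7.18 (adjusted p = 2.49e-10) for HSP17.6II. CLPB3, a plastid disaggregase, was the gene of the list that fell (-1.54, adjusted p = 0.00287). In wild type ATHSP22.0 (1.98), HSP17.6A (2.83) and HSP17.6II (1.67) led the risers, and ERDJ3A, a DnaJ-type chaperone gene (-2.50), GOLS1, a galactinol synthase gene (-2.81), and BOB1, a gene for a NudC-domain chaperone (-1.15), led those that fell. In phyA-211 BOB1 (-0.99), GOLS1 (-2.18) and AT2G20560 (-1.73) led the fall.

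Against submerged wild type, AT5G51440 (5.72), AT1G53540 (5.52) and AT2G29500 (5.64) led in ein3eil1. In submerged phyA-211 MGE2 (0.77), a mitochondrial co-chaperone gene, and CLPB3 (1.08) were higher, and HSP17.6II (-2.38), ATHSP22.0 (-1.81) and HSP17.6A (-2.40) led the 9 lower genes. Of these, HSP17.6II read 0.61, 0.57 and 0.38 TPM in submerged phyA-211, against 5.99, 6.43 and 8.40 TPM in submerged wild type. The groups did not overlap, as for 11% of all tested genes that lay lower in submerged phyA-211. In air AT5G51440 was lower in phyA-211 (-1.51, adjusted p = 0.00952), and in ein3eil1 MGE2 was higher (0.56) and AT1G07400 (-1.72), GOLS1 (-1.24) and AT2G29500 (-1.03) were lower. The response in ein3eil1 exceeded that in wild type for 25 of 27 genes, led by AT5G51440 (6.49), AT2G29500 (6.67) and AT1G53540 (5.65), and for 10.8% of all tested genes. The response in phyA-211 differed from that in wild type for 7 genes, with HSP90.1 above it (2.41, adjusted p = 0.0313) and ATHSP22.0 (-1.76), HSP17.6A (-2.34) and HSP23.6 (-1.73) leading the 6 below it. Of all tested genes, 20.4% lay above and 4.19% below in that comparison. The response in phyA-211 was below that in ein3eil1 for 25 of 27, led by AT2G29500 (-8.20), AT5G51440 (-6.57) and ATHSP22.0 (-5.70), and for 8.82% of all tested genes. In the 250-base windows of the 28 genes, 13 (46.4%) held a 2-unit heat shock element and 3 (10.7%) a 3-unit one. Over all protein-coding genes the shares were 16.1% and 0.386%, and of the 11 other HSF genes 2 held a 2-unit form and 0 a 3-unit form.

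**Figure D5:**
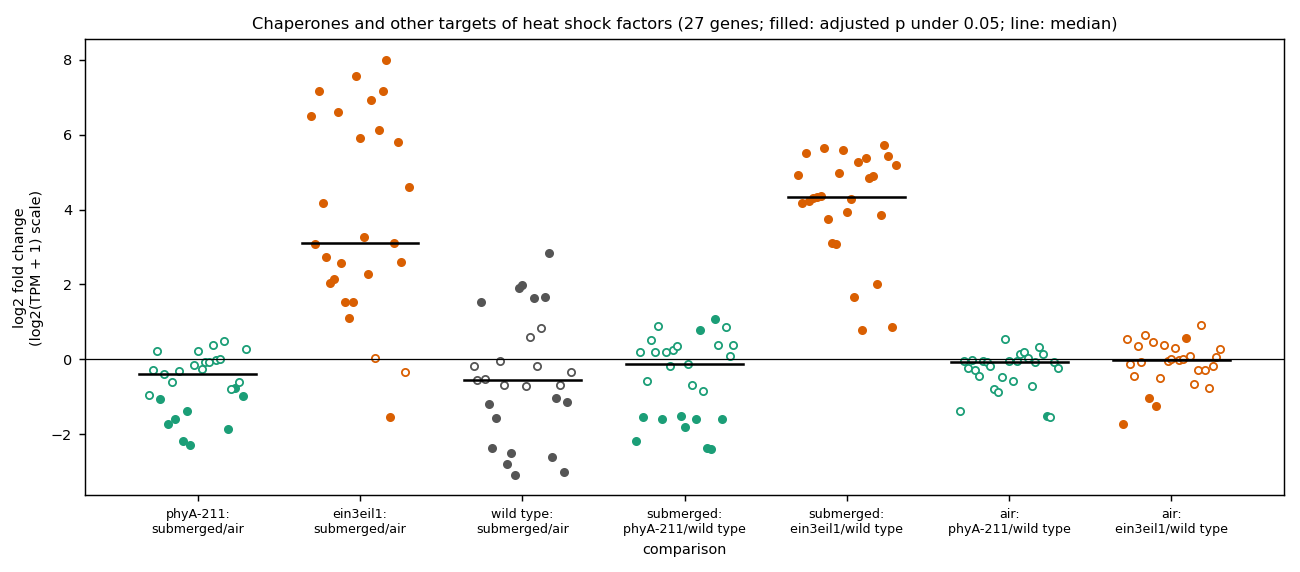
Points give log2 fold changes on the log2(TPM + 1) scale of the 27 tested target genes in 7 comparisons, filled where the adjusted p was under 0.05, with the median as a black line. The medians stand at 3.12 for submerged over air in ein3eil1 and 4.34 for ein3eil1 over wild type in submerged leaves, and between -0.54 and -0.01 in the other 5.

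For the 4 members called in at least 5 of the 10 comparisons, the tested genes with the most similar profile over the 18 libraries were found by the root mean square difference of centred log2(TPM + 1). Nearest to HSFA2 were AT5G48540 (0.49), AT1G10040 (0.51) and Hop3 (0.52), a co-chaperone gene, where the median gene stood at 1.63. Nearest to HSFA1B were CYP5 (0.12), AT5G01020 (0.12) and CRK3 (0.13), where the median gene stood at 0.61. Nearest to HSFA1D were bZIP16 (0.14), KU80 (0.17) and AT3G06330 (0.18), and nearest to HSFB2B were AT3G05500, AT1G26900 and AT2G43320 (0.29 each). These are descriptions over the same 18 libraries, which share their scaling and the high replicate 2 of submerged ein3eil1.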

How the data were processed

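Leaf RNA was measured by mRNA sequencing in 18 libraries. The authors deposited 1 table with a TPM value per gene and library, and no header names that unit: it was inferred from the deposited values, which sum to nearly the same total in every library. Per the submitters' processing notes, fastp, cutadapt, HISAT2, DESeq2 and TAIR10 belong to the pipeline, with neither versions nor roles listed. The step that made the values and the use of strand are not given in the sources used here. Depth per library is unknown.

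A gene entered the fit if 3 or more libraries reached 1 TPM, as 20302 of 32833 did. Its log2(TPM + 1) values were fitted with the trend and robust options of limma (version 3.58.1, in R 4.3.3), with 1 mean per group over all 18 libraries and no block, and tested two-sided in 10 contrasts at a Benjamini-Hochberg adjusted p under 0.05 over all tested genes. Every adjusted p in the text comes from limma. The fit was tested on simulated data, where the 0.05 threshold was not held in groups of unequal spread. The groups here were of unequal spread. Under water the median SD on the log2 scale was 0.359 in phyA-211, 0.215 in ein3eil1 and 0.0973 in wild type. In air it was 0.266, 0.148 and 0.173 in the same order. Tables and promoter windows were made with Python 3.11.15 and pandas 2.3.3. Windows are the 250 bases before the annotated start in TAIR10.1, in which all 10 members were matched by locus identifier.

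The members and the lists of other HSF genes, regulators, targets and tissue markers were chosen with earlier results of these data known. Named genes are all members, every other HSF gene past the threshold, and for regulators and targets the 3 of smallest adjusted p in each direction per comparison, with HSP17.6II and ATHSP22.0 given in full after their values were seen. A gene of the regulator list that this rule names is not reported here. Similar genes are given for members past the threshold in at least 5 contrasts. The alternatives were a pseudocount of 0.1, no filter, median centring, quantile normalization, only the groups compared, group-level weights, a replicate block and each library left out. The same settings on the list counts were added after seeing the data. The group labels follow line, condition and replicate number.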

Additional observations from a re-analysis of the deposited data

Results flagged for a closer look

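Responses to submergence, each the log2 change of submerged over air within a line, differed between lines for 9 pairs of an HSF gene and a comparison by the limma test of the difference itself. The response of ein3eil1 minus that of wild type was 5.01 for HSFA2 (adjusted p = 9.56e-06), 2.30 for HSFB2B (adjusted p = 0.000692), 2.17 for HSFB1 (adjusted p = 0.00174) and 1.31 for HSFB2A (adjusted p = 0.00764). It was -0.77 for HSFA1B (adjusted p = 0.0169). The response of phyA-211 minus that of ein3eil1 was -3.77 for HSFA2 (adjusted p = 0.000119), -1.79 for HSFB1 (adjusted p = 0.00467) and -1.76 for HSFB2B (adjusted p = 0.00353). It was 1.24 for HSFA1B (adjusted p = 0.000668). Both comparisons use the 6 ein3eil1 libraries, so they are not independent, and submerged ein3eil1 replicate 2 was the highest of its group for each of these genes. All 9 differences also passed the threshold without that library, with HSFA2 at 4.46 against wild type. Groups of 3 libraries were too small to flag single libraries.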

How the results depend on the processing

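No value of a member past the threshold changed sign under any alternative. Over 90 values of single members per alternative, median centring ended 11 calls and added 7, quantile normalization ended 10 and added 4, fitting only the groups compared ended 4 and added 4, group-level weights ended 2 and added 3, and a pseudocount of 0.1 and no filter each ended 3. Leaving out 1 library ended 44 and added 13 of 702. Counts of members called moved, among others, as follows. For submergence in wild type, 7 became 4 with median centring and 4 with quantile normalization. For submergence in ein3eil1, HSFA1A and HSFA1D lost their calls with either of these. For ein3eil1 against wild type in submerged leaves, HSFA1A and HSFA7A lost their calls and HSFA1B was called lower with either. Median centring also ended the HSFB2A call there. For ein3eil1 against wild type in air, 3 became 1 with a pseudocount of 0.1, 1 with median centring, 1 with quantile normalization and 5 with only the groups compared. For phyA-211 against wild type in air, 1 became 0 without a filter, and in submerged leaves 2 higher became 1 lower (HSFB1) with only the groups compared, 1 higher with group-level weights, 1 higher and 2 lower with median centring and 1 higher and 1 lower with quantile normalization. For the response of phyA-211 minus ein3eil1, 4 became 7 with median centring. With 1 library left out, the counts ran from 3 to 3 for submergence in phyA-211, 7 to 9 in ein3eil1 and 6 to 7 in wild type. They ran from 0 to 1 for phyA-211 against wild type in air, 1 to 3 in submerged leaves, 0 to 0 for ein3eil1 against wild type in air and 4 to 7 in submerged leaves. They ran from 0 to 4 for the response of phyA-211 minus wild type, 5 to 5 for ein3eil1 minus wild type and 4 to 6 for phyA-211 minus ein3eil1. The cause was not tested.

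Of 15 pairs of groups, 0 had correlations of deviations over 0.1 for all 3 replicate numbers, and 4 of 18 libraries were closest to their own number. By that rule the numbers did not pair the libraries. Submerged and air-grown phyA-211 fell just short of it, at 0.438, 0.201 and 0.0899 for replicates 1, 2 and 3, where 0.438 was the highest of the 45 correlations. With a replicate block the count for the response of phyA-211 minus wild type became 1 instead of 0, and the other counts were those without it. Over all tested genes, phyA-211 against wild type in submerged leaves gave 7947 calls and 1644 with only those groups fitted, submergence in phyA-211 gave 10388 and 6446, and ein3eil1 against wild type in air gave 5747 and 2374 with median centring. TPM values hide depth, so values near 0, as for HSFA7B, carry no counting error.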
